A study of Mus musculus with 4 samples.

Results

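The cardiac sarcomeric myosin chains are described here through 8 genes, Myh6, Myh7, Myh7b, Myl1, Myl2, Myl3, Myl4 and Myl7, taken by gene name from a table of 24637 mouse genes. They were measured by polyA RNA sequencing in 4 libraries of embryonic stem cell (ESC) lines that had been driven towards cardiomyocytes. A pair of libraries came from 2 independent WT (Taf4+/+) lines, and the other pair from 2 independent lines labelled Taf4a-/-, whose null alleles lack exons 11 and 12 of the gene for Taf4, a core subunit of the general transcription factor TFIID. All lines were derived from blastocysts of crosses between heterozygous C57Bl6J mice, were kept on feeder fibroblasts with leukaemia inhibitory factor, grew as embryoid bodies for 5 days in medium with 20% serum and were then plated on gelatin for 9 more days, so both genotypes were treated alike and differ in the genotype of the line. The labels give replicate numbers only, and the paper does not match libraries to lines. Each library is taken here as 1 line at 1 time point, so n is 2 per genotype. A line's own history cannot be told apart from a spread between cultures. Plated embryoid bodies are a mixture of cell types.

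Sarcomeric myosin II is the motor of the thick filament, built of a pair of heavy chains, each of which carries a regulatory and an essential light chain on its neck. Myh6 encodes the fast α heavy chain of the adult mouse ventricle and of the atria, and Myh7 the slower β heavy chain of the embryonic ventricle. The light chains come as chamber-typed partners, with Myl7 and Myl4 mainly in atrial and early heart muscle and Myl2 and Myl3 mainly in ventricular muscle.

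The members lie on 6 chromosomes of mm9 (NCBI37). Myh6 (chr14:55560758-55585764) and Myh7 (chr14:55589525-55613471) stand in tandem on the minus strand with 3760 bases between them. The others are Myh7b on the plus strand at chr2:155436948-155460043, Myl1 on the minus strand at chr1:66970869-66991978, Myl2 on the plus strand at chr5:122550960-122563481, Myl3 on the plus strand at chr9:110666150-110672308, Myl4 on the plus strand at chr11:104411977-104457067 and Myl7 on the minus strand at chr11:5796640-5798785. Each heavy chain gene also carries a microRNA in an intron, with 0 bases of its hairpin in a host exon. The mature sequences are shown because they link the heavy chain loci, with bases 2 to 8, the seed, in capitals.

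mmu-miR-208a-3p (in Myh6): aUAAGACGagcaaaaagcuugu

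mmu-miR-208b-3p (in Myh7): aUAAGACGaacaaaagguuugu

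mmu-miR-499-5p (in Myh7b): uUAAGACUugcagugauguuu

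The miR-208a and miR-208b arms shared the seed UAAGACG, whereas that of miR-499 was UAAGACU. PolyA libraries do not measure mature microRNAs. Of the hairpins, the table listed only that of miR-208a, with 1 read in WT replicate 1 and none in the other libraries.

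Promoter windows of RefSeq, from 250 bases before to 50 after each transcription start, were available for all 8 genes and were placed on mm9 by their sequence. The letters of the CArG box, CC then 6 A or T then GG, the element read by the serum response factor, occurred in 1.63% of all 32851 windows and in those of 2 members, Myl7 and Myl3. These upstream stretches are shown for their CArG boxes, with the letters of every motif searched in capitals.

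Myl7 (mm9 chr11:5798786-5798905, minus strand): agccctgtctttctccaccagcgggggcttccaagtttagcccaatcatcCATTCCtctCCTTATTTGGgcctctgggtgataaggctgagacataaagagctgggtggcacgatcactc

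Myl3 (mm9 chr9:110666062-110666149, plus strand): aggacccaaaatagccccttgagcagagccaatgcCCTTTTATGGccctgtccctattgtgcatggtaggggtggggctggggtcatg

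Counted from the RefSeq transcription start, with -1 the base before it, the box lay at -61 to -52 in Myl7 and at -85 to -76 in Myl3, whose RefSeq start lies 32 bases inside the gene annotated on mm9, so that the stretch shown ends before it. The TEAD-type letters CATTCC, also present in the Myl7 stretch at -70 to -65 without overlapping the box, occurred in 5 of the 8 members (Myh6, Myh7, Myl1, Myl3 and Myl7) and in 14.7% of all windows. The GATA-type letters AGATAA were found for 2 members (11.2% of all windows), TATAAA for 3 (13.6%), the NKX2-5-type letters TNAAGTG for 1 (11.5%), the E-box CACGTG for 1 (7.15%) and the MEF2 motif for 0 (0.557%). The windows of Myl2, which hold AGATAA and TATAAA, lie 7762 and 8227 bases from its nearest start annotated on mm9, and the TATAAA of Myh6 stands at 2 to 7, after the start. Both strands were searched, and a match says only that the letters stand in the window.

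The deposited values are reads per gene divided by 1 size factor per library, called normalized counts below. Between 21732746 and 27733034 reads were counted on genes, and 1 read was worth 0.877 to 1.11 normalized counts. The targeted gene, Taf4a, stood at 889 (replicate 1) and 678 (replicate 2) normalized counts for WT, against 1722 and 1799 for the libraries labelled Taf4a-/-. The gene-level value was thus higher in the libraries labelled Taf4a-/- (log2 fold change 1.18, standard error 0.16, adjusted p = 0.00569 from limma). This value does not separate the deleted exons, so genotypes are named here by their labels only. The paper identified its Taf4a-/- ESCs by PCR and reports that immunostaining found no Taf4 protein in them. Of 11 tested cardiomyocyte markers, such as troponin T (Tnnt2) and α-cardiac actin (Actc1), 8 were lower and 0 higher. Tnnc1 had at most 1 read in any library. Its gene overlaps Nisch on the other strand, with 0 shared exon bases, and Nisch had 19790 to 22760 normalized counts. Whether this overlap affects the Tnnc1 count was not tested. The summed level of the list was 40836 and 52909 in the WT libraries against 29594 and 28840. Most of this sum was Tpm1, a tropomyosin gene that did not pass the test (log2 fold change -0.01), and without it the list summed to 18364 and 20041 against 1994 and 2267. Of the 8 markers of undifferentiated ESCs, 8 were higher (5 when the variance was not allowed to follow the mean), and their summed level was 3957 and 1500 in the WT libraries against 14331 and 16074. The part of this difference in culture composition in the myosin values was not tested, and in bulk samples fewer cells of a type and less RNA per cell cannot be told apart.

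The myosin chains were lower in the libraries labelled Taf4a-/-. Their 8 values summed to 19967 normalized counts in WT replicate 1 and 18443 in WT replicate 2, or 0.0821% and 0.0723% of the reads on genes. For the libraries labelled Taf4a-/- the sums were 2318 in replicate 1 and 1841 in replicate 2, or 0.00976% and 0.00766%, so that the mean sum was 9.23-fold higher in WT. The light chains contributed 6781 and 8031 against 468 and 474, a 15.7-fold ratio of the means, and the heavy chains 13186 and 10412 against 1850 and 1367, a 7.34-fold ratio. Tested with limma on log2(normalized counts + 1), across 16926 genes whose mean reached 10, 6 of the 7 members that passed this filter were lower at an adjusted p under 0.05 and 0 were higher. The shares of all tested genes called were 17.3% lower and 11.3% higher. The 6 were Myh6, Myh7, Myl2, Myl3, Myl4 and Myl7, Myh7b missed the threshold, and Myl1 was too low to be tested. The median log2 fold change of the 7 members was -3.92, and that of all genes tested was -0.01. In each of the 8 genes both WT libraries stood above both others, a separation found in this direction for 36.6% of all tested genes; for Myl1 it rests on 3 reads against 2.

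**Figure D1:**
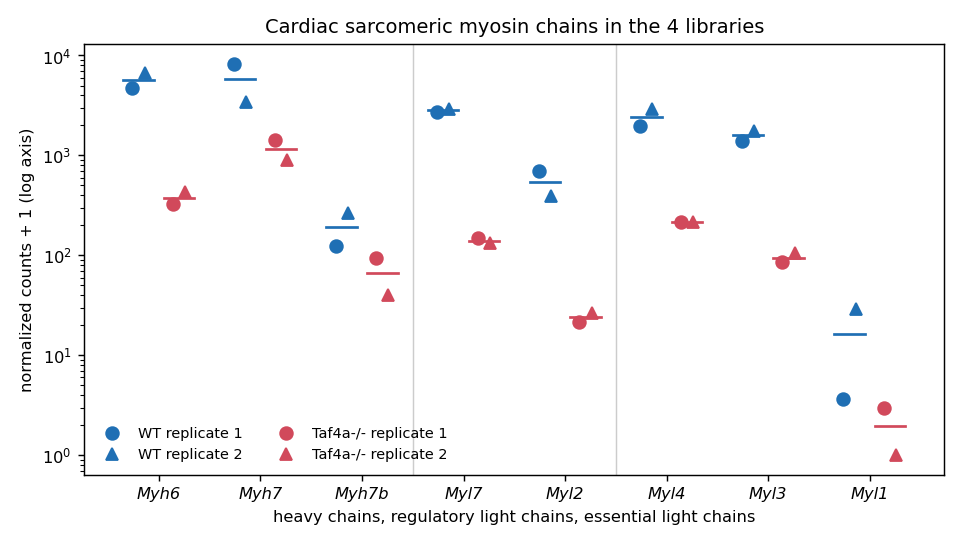
Normalized counts + 1 (log axis) of the 8 myosin chain genes in each of the 4 libraries, with circles for replicate 1, triangles for replicate 2, blue for WT, red for the libraries labelled Taf4a-/- and bars for the genotype means (n = 2 each). Both WT points lie above both red points in every gene, by the widest margin for Myl7 and the narrowest for Myh7b and Myl1.

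Among the heavy chains, Myh6 had the largest change. WT replicate 1 held 4763 normalized counts and WT replicate 2 held 6706, whereas the libraries labelled Taf4a-/- held 323 and 431. The lowest WT value was 11.04-fold above the highest of the other genotype, and the means were 5735 ± 1374 and 377 ± 76.6 (SD, n = 2 each). On the log2 scale the fold change was -3.92 (95% interval -4.44 to -3.39, standard error 0.22, adjusted p = 0.000635 from limma), which left 6.58% of the WT mean.

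Myh7 was the most abundant chain of the libraries labelled Taf4a-/- in normalized counts. It was at 8300 in WT replicate 1 but at 3443 in WT replicate 2, and at 1435 and 897 in the libraries labelled Taf4a-/-. The WT libraries differed 2.41-fold from each other, as much as the gap of 2.40-fold that separated the genotypes. The means were 5872 ± 3434 and 1166 ± 381 (SD, n = 2 each), and 19.9% of the WT mean remained. Its log2 fold change of -2.24 (standard error 0.42, 95% interval -3.26 to -1.21) had an adjusted p of 0.0146 from limma, and one of 0.0632 when the variance was not allowed to follow the mean. Leaving out WT replicate 1 gave a log2 fold change of -1.60 (adjusted p = 0.0365), and leaving out WT replicate 2 gave -2.87 (adjusted p = 0.0367).

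Myh7b, an ancient heavy chain gene of slow muscle and heart, had 123 and 263 normalized counts in WT and 92.0 and 38.7 in the libraries labelled Taf4a-/-. The groups did not overlap, but WT replicate 1 was only 1.33-fold above the higher of the other values. The log2 fold change was -1.57 (standard error 0.53, 95% interval -2.85 to -0.29), and it did not pass the test (adjusted p = 0.0700 from limma). It passed only without the library labelled Taf4a-/- replicate 1, at -2.19 (adjusted p = 0.0123), and over the 13 alternatives the adjusted p ran from 0.0123 to 0.311. The last exon overlaps Trpc4ap on the other strand by 37 exon bases; Trpc4ap had 5117 to 6407 normalized counts in the 4 libraries.

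The 2 chamber-linked heavy chains are close in sequence. Of the 50-base stretches in the coding transcripts of Myh6, 22.1% also occurred in those of Myh7, as did 21.4% of those of Myh7 in Myh6, whereas 0 stretches of Myh7b were found in another gene. Reads that fall in such stretches could have been left out or given to either gene, so the 2 values are not wholly separate; the read length is not given in the sources used here. The sum of Myh6 and Myh7, which is free of a split between them, was 13063 and 10149 in WT and 1758 and 1328 in the libraries labelled Taf4a-/-, a log2 difference of the means of -2.91.

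The 2 regulatory light chain genes had the lowest log2 fold changes of the members, with intervals that overlap those of Myl3 and Myh6. Myl2, the ventricular regulatory light chain, was at 698 normalized counts in WT replicate 1 and at 396 in WT replicate 2, and at 20.6 and 25.4 in the libraries labelled Taf4a-/-. These last values rest on 21 and 23 reads. The WT libraries differed 1.76-fold, and the lower of them was still 15.6-fold above the higher of the others. On the log2 scale the fold change was -4.46 (95% interval -5.30 to -3.63, standard error 0.34, adjusted p = 0.00126 from limma), and 4.21% of the WT mean remained. Its exons overlap those of Ccdc63 on the other strand by 60 bases, a gene with at most 4.89 normalized counts.

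Myl7, the atrial regulatory light chain, was the steadiest member between libraries of the same genotype. It had 2727 and 2946 normalized counts in WT, which differed 1.08-fold, and 147 and 131 in the libraries labelled Taf4a-/-, which differed 1.13-fold. The gap between the genotypes was 18.6-fold at its narrowest. The means were 2836 ± 155 and 139 ± 11.5 (SD, n = 2 each). The log2 difference was -4.35 (95% interval -4.70 to -3.99, standard error 0.15, adjusted p = 0.000286 from limma).

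Among the light chains, the essential light chain genes came next, with the log2 fold change of the heavy chain Myh6 (-3.92) between those of Myl3 and Myl4. Myl3, the ventricular and slow muscle essential light chain, had 1393 and 1772 normalized counts in WT and 84.2 and 104 in the libraries labelled Taf4a-/-. Limma gave a log2 fold change of -4.06 with a standard error of 0.20 (adjusted p = 0.000556), and 5.95% of the WT mean remained. Myl4, the atrial and embryonic essential light chain, had 1961 and 2890 normalized counts in WT, against 214 and 215 in the libraries labelled Taf4a-/-. At -3.47 (standard error 0.21, adjusted p = 0.000809 from limma) its log2 fold change was the smallest in size of the 4 light chains tested, and 8.84% of the WT mean remained. For both genes the genotypes stood well apart, by 13.4-fold for Myl3 and 9.14-fold for Myl4 at the narrowest.

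Myl1, the essential light chain of fast skeletal and early embryonic heart muscle, was near the limit of detection. It had 2.63 and 28.1 normalized counts in WT (3 and 27 reads), and 1.96 and 0 in the libraries labelled Taf4a-/- (2 and 0 reads). The ratio of its summed reads per size factor was 13.7 (95% exact interval 3.49 to 118.6, which covers counting error only). Nearly all of these reads came from WT replicate 2, and its mean of 8.16 kept it out of the test. When no gene was filtered out it did not pass (log2 fold change -2.58, adjusted p = 0.148 from limma).

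**Figure D2:**
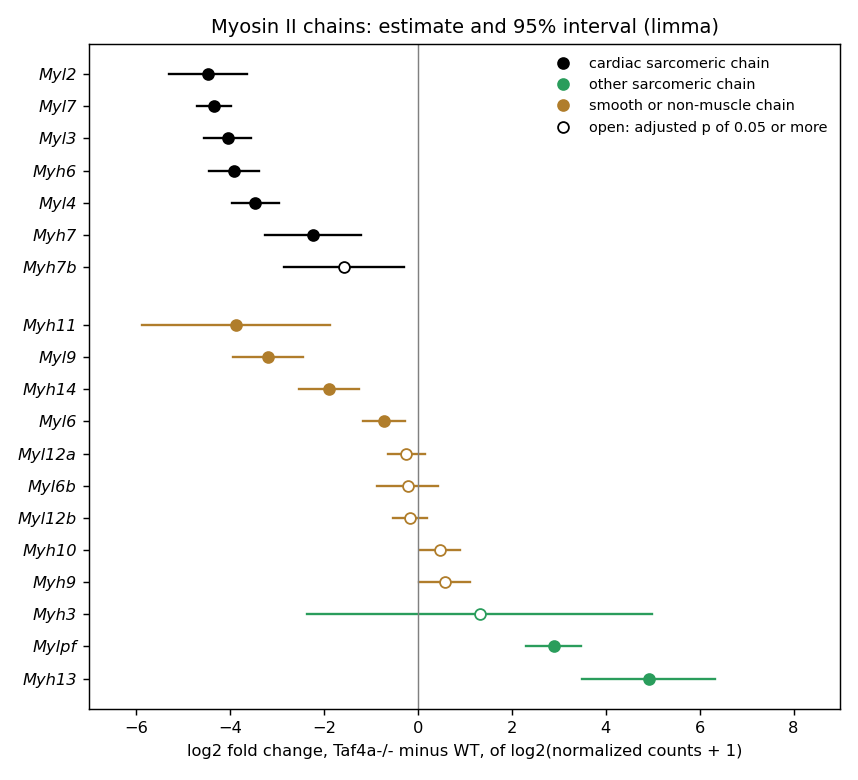
Log2 fold change (libraries labelled Taf4a-/- minus WT, of log2(normalized counts + 1)) with its 95% interval from limma for the 7 tested cardiac chains in black, other sarcomeric chains in green and smooth or non-muscle chains in brown, filled where the adjusted p was under 0.05. The black points run from -4.46 for Myl2 to -1.57 for Myh7b, all below 0, whereas the green points lie above 0 and the brown ones on both sides.

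The WT libraries did not rank the chains alike. Myh7 and Myl2 were higher in WT replicate 1, by 2.41-fold and 1.76-fold, and the other 6 members were higher in WT replicate 2, by 1.08-fold for Myl7 to 2.14-fold for Myh7b and more for the sparse Myl1. The 2 genes that went the other way both belong to the ventricular set, but Myl3, which is of that set too, was 1.27-fold higher in WT replicate 2. The ESC markers were also higher in WT replicate 1, from 1.28-fold for Esrrb to 3.94-fold for Pou5f1 (1097 against 278 normalized counts). In the libraries labelled Taf4a-/- the members differed by 1.00-fold for Myl4 to 2.38-fold for Myh7b, Myl1 aside.

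Levels of different genes were set side by side as normalized counts per kilobase of merged exons, which the annotation puts at 6.407 kb for Myh6 and at 0.590 kb for Myl7. On this scale Myl7 was the highest member in each of the 4 libraries, with 4621 and 4993 per kilobase in WT and 249 and 221 in the libraries labelled Taf4a-/-. Myl3 came second in WT with 1067 and 1356, and Myh7 came second in the libraries labelled Taf4a-/- with 167 and 104. Myl1 was the lowest member on this scale, at 15.8 per kilobase or less. With the coding length in place of the merged exons, Myl4 was instead the highest member in both libraries labelled Taf4a-/-, at 370 and 371 per kilobase against 280 and 249 for Myl7. The order of Myl4 and Myl7 there depends on the 4637 merged exon bases of Myl4, of which 579 are coding in its longest form. Ranks in WT also depend on the length used. Per kilobase of coding sequence Myl4 came second in WT, at 3387 and 4991 against 2276 and 2895 for Myl3. In WT replicate 2 Myh7b was then the lowest member, at 45.1 against 49.7 for Myl1.

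Ratios between paired chains were taken within each library, so that they do not depend on the scaling between libraries. The ratio of Myh6 to Myh7 per kilobase was 0.769 in WT replicate 1 and 2.61 in WT replicate 2, and 0.302 and 0.644 in the libraries labelled Taf4a-/-. The groups did not overlap, but their mean log2 ratios differed by -1.68 while the WT libraries differed by 1.76 from each other. The shift was thus no larger than the spread between the WT libraries. In both genotypes the ratio was lower in replicate 1 than in replicate 2. WT replicate 2 was the only library with more Myh6 than Myh7 per kilobase.

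The ratio of Myl7 to Myl2 was 12.9 and 24.6 in WT, and 23.6 and 17.0 in the libraries labelled Taf4a-/-. These values overlapped, and the mean log2 ratio differed by 0.17 with a spread of 0.93 between the WT libraries. The atrial chain made up 92.8% to 96.1% of the regulatory light chain level per kilobase of merged exons in all 4 libraries, and 79.7% to 88.2% per kilobase of coding sequence. With 21 and 23 reads of Myl2 the last ratios are imprecise, at 95% intervals of 15.0 to 37.1 and 10.9 to 26.4 (Wilson, counting error only).

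The ratio of Myl4 to Myl3 was 0.397 and 0.459 in WT, and 0.717 and 0.581 in the libraries labelled Taf4a-/-. The groups did not overlap, and the mean log2 ratio was 0.60 higher in the libraries labelled Taf4a-/-, which is more than the spread of 0.21 in WT and of 0.30 in the other genotype. Myl3 was above Myl4 in every library per kilobase of merged exons, and below it in every library per kilobase of coding sequence, while the shift between genotypes is the same on both. These 3 ratios were given no test, since an exact permutation test of 2 libraries against 2 has a smallest two-sided p of 0.333.

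**Figure D3:**
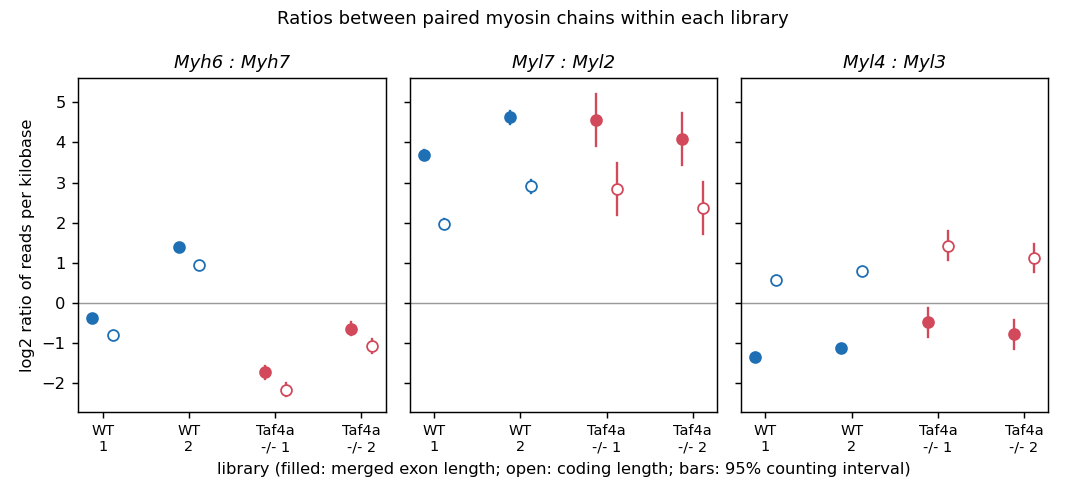
Log2 ratio of reads per kilobase for Myh6 to Myh7, Myl7 to Myl2 and Myl4 to Myl3 in each library (blue WT, red libraries labelled Taf4a-/-), filled with merged exon length and open with coding length, with bars for the 95% counting interval. The Myh6 to Myh7 points of the WT libraries lie 1.76 apart, those of Myl7 to Myl2 overlap between genotypes, and those of Myl4 to Myl3 are higher in red than in blue.

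Set against the heavy chains, the light chains were lower in the libraries labelled Taf4a-/-. The regulatory light chains summed to 2.88 and 3.49 times the heavy chain level per kilobase in WT, and to 1.12 and 1.32 times in the libraries labelled Taf4a-/-. The essential light chains summed to 0.863 and 1.34 times the heavy chain level in WT, and to 0.483 and 0.709 times. Neither pair of values overlapped between genotypes, with either gene length, and the difference was not tested; the heavy chain sum of the libraries labelled Taf4a-/- was mostly Myh7, with Myh6 at 21.8% and 37.9% of it against 43.0% and 70.4% in WT.

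The partners of myosin in the thick filament were lower as well. Of 19 such genes 16 were tested, of which 12 were lower and 0 higher, and their median log2 fold change was -2.04. The count fell to 7 when WT replicate 1 was left out and to 5 when WT replicate 2 was. Mybphl, a myosin-binding protein C relative of the atria, had 54.4 and 75.9 normalized counts in WT and 2.94 and 4.42 in the libraries labelled Taf4a-/- (log2 fold change -3.82, standard error 0.46, adjusted p = 0.00386 from limma). Ttn, which encodes the spring protein titin, fell from 1649 and 1736 to 163 and 269.9 (log2 fold change -3.00, standard error 0.25). Smyd1, a methyltransferase that assists myosin folding, had a log2 fold change of -2.67 (standard error 0.36). Mylk, a myosin light chain kinase that is also in the smooth muscle marker list, had one of -2.62 (standard error 0.31). The kinase Mylk3, which is not in that list, was lower by less, at -1.57 (standard error 0.27). Myosin-binding protein C of slow and fast skeletal muscle, Mybpc1 and Mybpc2, did not pass, at -1.25 and 1.03.

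Other sarcomeric chains did not share the fall. Of 9 looked for, 7 were found, and 3 passed the filter. Mylpf, the regulatory light chain of fast skeletal muscle, had 63.1 and 66.5 normalized counts in WT and 412 and 573 in the libraries labelled Taf4a-/- (log2 fold change 2.89, standard error 0.24, adjusted p = 0.00151 from limma). Its gene lies 148 bases from Sept1 on the other strand, which had 154 and 67.5 against 550 and 931 normalized counts; reads of the 2 genes cannot be separated by strand with a kit that does not mark it. Myh13, a heavy chain of eye and larynx muscle, had 0 reads in both WT libraries and 26.4 and 32.1 normalized counts in the others, at least 9.75-fold higher against a floor of 3 reads per library (adjusted p = 0.00382 from limma). Of its 50-base stretches 8.45% also occur in other genes. Myh3, the embryonic heavy chain, had 17.5 and 0 against 25.5 and 3.32 and did not pass. Of 11 skeletal muscle markers found, 4 had at most 3 reads in every library, among them the muscle creatine kinase Ckm, and Myod1 had at most 7 reads. The list summed to 397 and 341 normalized counts in WT against 337 and 388. Actn3 alone was higher among the 4 tested (log2 fold change 0.86, adjusted p = 0.0498 from limma), and its call was lost in 8 of the 13 alternatives.

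Of the 9 smooth and non-muscle chains, 4 were lower and 0 higher, around a median of -0.24 on the log2 scale. Myh11, the smooth muscle heavy chain, had 71.9 and 340 normalized counts in WT and 16.6 and 5.53 in the libraries labelled Taf4a-/- (log2 fold change -3.88, standard error 0.82, adjusted p = 0.0200 from limma). Its call was lost in 3 of the 13 alternatives, with adjusted p-values of 0.0939 without WT replicate 2, 0.0673 with no variance trend and 0.0660 with voom on the recovered reads. The count of chains called lower was 2 without WT replicate 2. Myl9, the smooth muscle regulatory light chain, fell from 2325 and 4329 to 398 and 296 (log2 fold change -3.20, standard error 0.31), and the non-muscle chain Myh14 had a log2 fold change of -1.89. Myl6, the essential light chain of non-muscle cells, was lower by less, at -0.71. The abundant non-muscle heavy chains Myh9 and Myh10 had log2 fold changes of 0.57 and 0.47 and did not pass, nor did Myl6b, Myl12a (listed as 2900073G15Rik) and Myl12b, between -0.24 and -0.17. Smooth muscle markers were lower in 4 of 8 (1 of 8 with no variance trend), and their summed level was 31905 and 58096 in WT against 22008 and 21760. The 4 include Myh11, already counted among these chains, and Mylk, already counted among the thick filament partners.

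**Figure D4:**
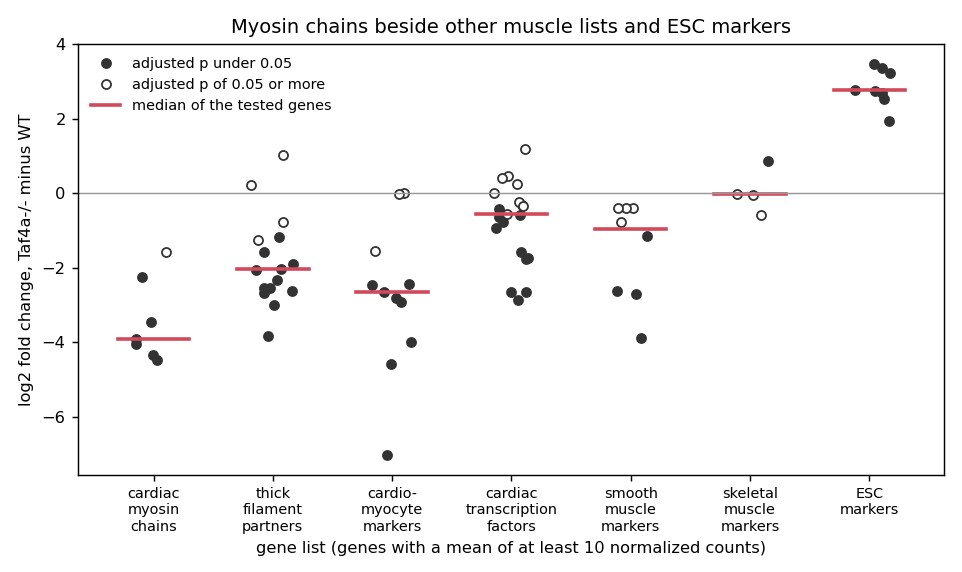
Log2 fold change (libraries labelled Taf4a-/- minus WT) of the tested members beside the tested genes of 6 other lists, filled where the adjusted p was under 0.05, with a red line at each list's median. The median is -3.92 for the cardiac myosin chains, -2.04 for the thick filament partners, -2.65 for the cardiomyocyte markers, -0.57 for the cardiac transcription factors, -0.95 for the smooth muscle markers, -0.03 for the skeletal muscle markers and 2.76 for the ESC markers.

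Transcription factors known to act on cardiac myosin genes were mixed. Of 20, all tested, 11 were lower and 0 higher, around a median of -0.57 on the log2 scale. Of the 20, 15 had a log2 fold change below 0. Among the rest Hand1 had the largest, at 1.20 (standard error 0.37), and did not pass (adjusted p = 0.0564 from limma). The largest falls were those of Tbx5 (log2 fold change -2.87, standard error 0.26), a factor of the atria and left ventricle, of Irx4 (-2.64, standard error 0.33), a ventricular factor, of Nkx2-5 (-2.64, standard error 0.38) and of Thra (-1.76, standard error 0.15), the thyroid hormone receptor through which Myh6 and Myh7 are regulated in opposite directions. Irx4 had 123 and 109 normalized counts in WT, against 15.7 and 19.9. The serum response factor gene Srf had 2240 and 2185 against 1812 and 1697 normalized counts and did not pass (log2 fold change -0.34, adjusted p = 0.0710 from limma). Tead1 had a log2 fold change of 0.01 and likewise did not pass. The count of factors called lower was 7 without WT replicate 2 and 6 without the library labelled Taf4a-/- replicate 1.

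The genes with the profile nearest to that of the myosin chains were looked for among 12538 other genes with a mean of at least 100. Likeness was the Euclidean distance over the 4 libraries between log2 values centred on each gene's mean and the mean centred profile of the 7 tested members. The nearest were Hnf4a (distance 0.129), Cd36 (0.143), Thy1 (0.162), Sphkap (0.177) and Sepp1 (0.195), each nearer than any member itself, of which Myl4 at 0.361 was the closest and Myh7b at 2.14 the farthest. Their log2 fold changes lay between -3.45 and -3.27. Over 4 points in 2 pairs, such a profile is mostly the size of 1 difference, and the list says nothing of shared function.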

How the data were processed

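PolyA RNA of 4 libraries, 2 per genotype, was sequenced from kits that do not mark strand. Per the labels and the paper, the authors mapped reads to mm9 with TopHat 1.3.3 after CASAVA 1.8, counted them with HTSeq 0.5.3p1 and deposited counts divided by a DESeq size factor per library; read length, annotation release and strand setting are not given in the sources used here. The deposited values have decimal commas, and 100% of them were whole multiples of 1 read within a tolerance of 0.1. Genes were identified and measured with the gencode annotation of NCBIM37, which holds all 24637 identifiers, and promoter and microRNA sequences are from RefSeq (GRCm38.p6). Limma 3.58.1 in R 4.3.3 (lmFit, eBayes with a variance trend) was run on log2(value + 1) for genes with a mean of at least 10, with Benjamini-Hochberg adjustment and a threshold of 0.05. P-values rest on each gene's spread between libraries of the same genotype, drawn towards a trend over all tested genes (prior degrees of freedom 4.17). Log2 fold changes understate those of genes with few reads. The script was tested on simulated data. The members, lists and naming rule (all members, Taf4a, up to 4 called genes per list by size, every other myosin chain with a mean of at least 10, the 5 nearest profiles, overlapping genes) were chosen with earlier results of these data known. Sept1, Nisch, Tpm1, Srf, Tead1, Hand1, Mylk3, Mybpc1, Mybpc2, Pou5f1, Esrrb, Actn3, Ckm and Myod1 were named after their values were seen. Plots were made in Python 3.11.15 (matplotlib 3.10.9).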

Additional observations from a re-analysis of the deposited data

How the results depend on the processing

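The limma fits were repeated with pseudocounts of 0.5 and 10, no filter or a mean of at least 50, equal library totals, quantile normalization, no variance trend, voom on the recovered reads, a replicate block and without each library, 13 alternatives in all. The planned edgeR and DESeq2 fits were not run. Of the 7 tested members, 5 to 7 were called lower; Myh6, Myl2, Myl3, Myl4 and Myl7 were called in all 13, and all 7 stayed below 0. Quantile normalization moved the median of all genes from -0.01 to 0.11. With no variance trend, 1741 genes were called lower and 856 higher in place of 2928 and 1906, 2 smooth and non-muscle chains lower in place of 4, 1 smooth muscle marker lower in place of 4, and 5 ESC markers higher in place of 8. With no filter, the members' median was -3.69. At a mean of at least 50, 1 other sarcomeric chain was called higher in place of 2, since Myh13 left the test. With quantile normalization, 1 smooth or non-muscle chain was called higher. Across genes, deviations of same-numbered libraries correlated at 0.0118. With 1 difference per genotype this cannot show whether the numbers mark a shared batch, and the labels do not say. With the block, 2657 genes were called lower, 1536 higher and 6 members lower. The block lowered the standard error from 0.42 to 0.18 for Myh7 and from 0.22 to 0.14 for Myh6. It lowered those of Myl3 and Myl4 slightly and raised those of Myh7b, Myl2 and Myl7. Leaving out a library gave 1222 (without WT replicate 2) to 3038 genes lower, 624 (without the library labelled Taf4a-/- replicate 2) to 2476 higher, a members' median of -4.12 to -3.67, 5 to 12 thick filament partners lower, 2 to 5 smooth and non-muscle chains lower and 0 to 1 higher, 6 to 10 transcription factors lower and 0 to 2 higher. Per kilobase of coding sequence, the log2 ratio of Myl4 to Myl3 changed sign, to 0.57 and 0.79 in WT and 1.43 and 1.13 in the others, by the construction of the lengths. Apart from this, the causes were not tested. Depth limits Myl1, Myl2, Myh13 and Mybphl, which had few reads in 1 genotype, and n is 2 libraries per genotype, each taken as 1 line.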
